A study of Homo sapiens with 6 samples.

Results

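IFITM1, IFITM2 and IFITM3 are 3 neighbouring interferon-induced genes at the tip of the short arm of chromosome 11. The NFATc2 islands of this cluster were taken as every island on chromosome 11 from 0.25 to 0.40 Mb (hg19) in the deposited list, an island being a stretch in which reads from the immunoprecipitate (IP) exceeded those predicted from input DNA. There were 2 such islands among 32760 in the whole list, 1 at IFITM2 and 1 at IFITM1, and none at IFITM3. The experiment compared 3 NFATc2 IP libraries with 3 Input DNA libraries, all from untreated THP-1, a human monocytic line established from an acute myeloid leukaemia. Cells were fixed in 1% formaldehyde for 10 min, 11000000 per IP, and precipitated with the rabbit monoclonal NFAT1 (D43B1) XP (NFAT1 is another name of NFATc2). The input is DNA that was not precipitated with this antibody. The caller pooled the libraries, so each island has 1 value, no spread between replicates can be given, and every interval below covers counting error in the pooled reads only. The window was chosen by position and with its log2 fold changes of IP over input known, so these folds are described and not tested.

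IFITM proteins are small membrane proteins that restrict the entry of many enveloped viruses, IFITM1 mostly at the cell surface and IFITM2 and IFITM3 mostly in endosomes. Interferons raise their transcription through interferon-stimulated response elements close to the gene starts. NFATc2 is a calcium-regulated transcription factor. Calcineurin removes its phosphates, the protein enters the nucleus, and it binds DNA at a GGAAA core, often beside a partner factor. The cells here were not stimulated with interferon or with a calcium signal.

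The promoter sequences are shown because both islands lie at gene starts and because IFITM1 and IFITM3, with and without an island, carry much the same elements. In the RefSeq promoter table (GRCh38.p14, 250 bases before to 50 after each gene start), 3 genes of the family had an entry, namely IFITM1, IFITM3 and IFITM5; IFITM2 and IFITM10 had none. In the 174 bases from -150 to 24 below, counted from the gene start with no base 0, capitals mark matches to the interferon-stimulated response element, searched as GAAA, any 2 bases and GAAA again.
IFITM1: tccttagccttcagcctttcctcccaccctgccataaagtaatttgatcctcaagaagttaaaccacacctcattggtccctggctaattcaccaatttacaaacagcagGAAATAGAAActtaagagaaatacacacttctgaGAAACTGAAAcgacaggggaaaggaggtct
IFITM3: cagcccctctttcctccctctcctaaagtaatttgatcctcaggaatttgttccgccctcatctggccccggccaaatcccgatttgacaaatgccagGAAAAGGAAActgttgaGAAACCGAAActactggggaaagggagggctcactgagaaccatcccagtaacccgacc

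Each promoter held 2 response elements. They lay at -40 to -31 and -6 to 4 in IFITM1, and at -52 to -43 and -35 to -26 in IFITM3. The part around them is given again with the NFAT core GGAAA in capitals, to show how closely the letters of both motifs sit.
IFITM1: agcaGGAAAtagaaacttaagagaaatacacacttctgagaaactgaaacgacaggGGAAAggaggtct
IFITM3: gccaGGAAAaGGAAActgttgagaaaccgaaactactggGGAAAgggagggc
With both strands searched, the 300 bases of the table held 3 NFAT cores in IFITM1 and 4 in IFITM3. In IFITM1 the core at -41 to -37 overlaps the upstream response element, and another starts at 12, inside the transcribed part. In IFITM3 the cores at -53 to -49 and -47 to -43 both overlap the upstream response element, and another lies at -18 to -14. Each gene also had 1 core on the opposite strand, at -134 to -130 in IFITM1 and at -141 to -137 in IFITM3. IFITM5, a bone-restricted relative that lies beside IFITM2 in the order of genes, held neither motif.

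The NFAT core is short and common. It occurred in 61.2% of the 35116 promoters of the table, and the longer form TGGAAA, found in 20.7%, was absent from both IFITM promoters. The response element was rarer, in 3.57% of promoters, and 0.259% had at least 2. Of 30 interferon-stimulated genes on a set list, 22 had a promoter in the table, and 15 of these 22 (68.2%) held a response element in at least 1 promoter. These genes had 32 promoters, and for each gene the promoter with most matches was counted. By promoter, the unit of the shares over the table, 19 of the 32 held a response element. At least 2 were present in 10 of the 22, among them ISG15, a ubiquitin-like protein, with 2, IFIT1, a sensor of viral RNA, with 2, and BST2, which tethers virus particles, with 2. MX1, a GTPase that blocks viral replication, had 1, and STAT2 had none. An NFAT core was in 20 of the 22 genes (90.9%) and in 28 of the 32 promoters, with 4 in ISG15 and 3 in IFIT1. Of the 1255 promoters with a response element, 634 (50.5%) had a GGAAA that overlapped one, the motifs having the letters GAAA in common. The gamma-activated site TTCNNNGAA matched once in IFITM1, at -12 to -4, and not in IFITM3, against 7.66% of all promoters with a match. The E-box CACGTG, the site of MYC and its partner MAX, matched in neither, against 7.26% of all promoters. The IFITM1 and IFITM3 promoters were identical in 63.6% of aligned columns, with a longest shared run of 19 bases. A match to a motif is a description of the letters and not evidence of a bound site.

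The island at IFITM1 had the higher fold. It spans 400 bp (chr11:314001-314400, hg19) and held 45 IP reads and 10 input reads. Scaled to the depth of the IP, the input predicted 5.62 IP reads, so the IP was 8.01-fold above it, or 3.00 on the log2 scale, with a 95% counting interval of 1.99 to 4.16. The caller's −log10 p was 25.6 and its −log10 FDR, the false discovery rate over candidate islands, 22.9. IFITM1 runs on the plus strand over about 314.0 to 315.3 kb in hg19. The island therefore began at the approximate gene start and covered the first 400 bp, or 30.8%, of the gene. At these approximate positions the island ran downstream from the gene start, and where the sequence shown above lies against it is not known. The gene start in hg19 is known here to 0.1 kb and the island in steps of 200 bp, so that the response elements, within 40 bases of the start, cannot be placed inside or outside the island.

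The island at IFITM2 was 3 times as wide, with 1200 bp (chr11:308001-309200, hg19), and lower in fold. It held 73 IP reads and 39 input reads against 21.9 predicted IP reads, a 3.33-fold excess, which is 1.74 on the log2 scale with a 95% counting interval of 1.16 to 2.34. Its −log10 p was 17.7 and its −log10 FDR 15.1. IFITM2, on the plus strand over about 308.1 to 309.4 kb, starts inside the island, which covered 84.6% of the gene and ended 0.2 kb short of its end. The fold at IFITM1 was 1.27 above that at IFITM2 on the log2 scale, with a 95% counting interval of the difference (delta method) of 0.13 to 2.40. That interval leaves out the spread between replicates, and as the window was chosen with these folds known, no test of the difference was made.

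No island was listed at IFITM3, which lies on the minus strand over about 319.7 to 321.1 kb. From its start, at 321.1 kb, the nearest edge of the IFITM1 island was 6.7 kb away, and that of the IFITM2 island 11.9 kb. The next island of the chromosome began 488.7 kb beyond the gene. The list holds no reads outside islands, so no level, fold or upper limit can be given for IFITM3, and a lower NFATc2 signal there than at IFITM1 was not shown. For scale, the fewest IP reads were 37 in any listed island of 400 bp, 52 in any of 1200 bp and 32 in any island at all. At the input of the IFITM1 island, 10 IP reads would have passed the lowest −log10 p in the list, 1.52. No listed island held so few, so passing that p was not shown to be enough for a listing. The number of reads that a listing at IFITM3 would have needed is not known.

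**Figure D1:**
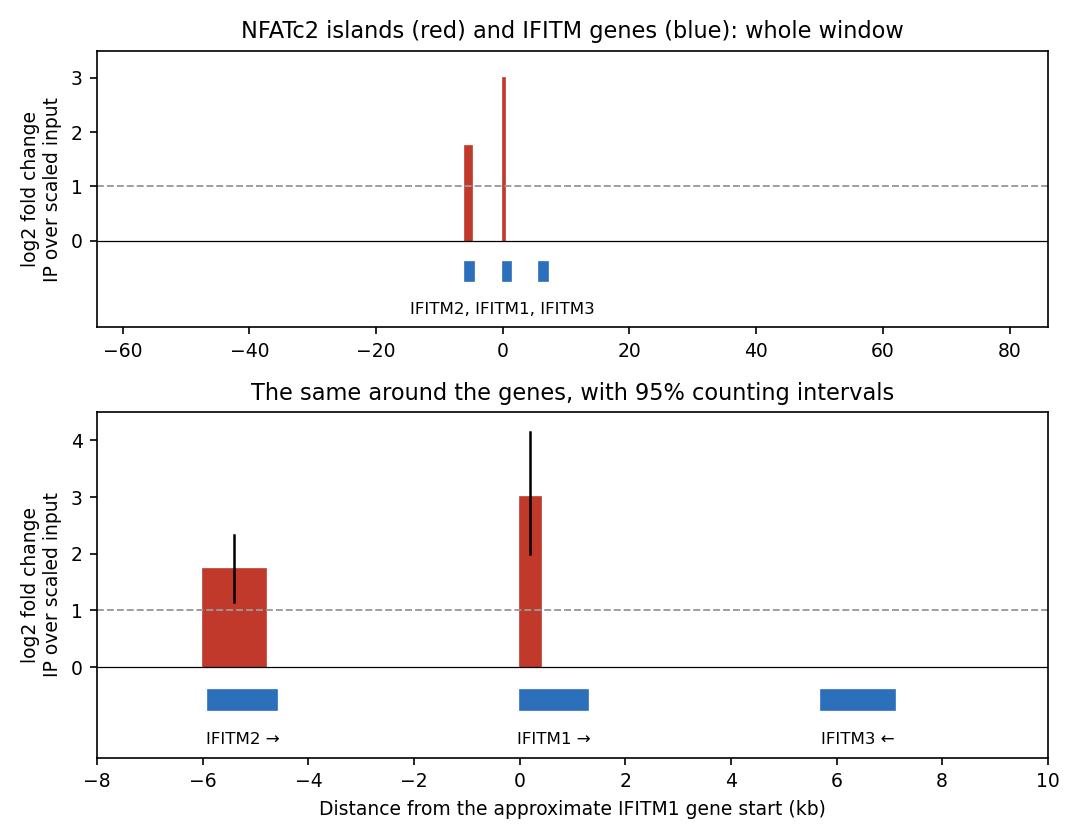
Log2 fold change, NFATc2 IP against input at equal depth (y axis), along the window, as distance in kb from the approximate IFITM1 gene start (x axis), with red bars as wide as the islands, blue boxes for the genes with arrows for their strand, a dashed line at 1 and, in the lower panel, black lines for 95% counting intervals. Bars stand at 3.00 over the start of IFITM1 and at 1.74 over IFITM2, and none stands over IFITM3.

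The 3 genes are paralogues with stretches in common. In the canonical GENCODE v44 transcripts, IFITM1 and IFITM3 shared an exact run of 141 bases, and IFITM2 shared runs of 99 bases with each of the others. Of all 50-base stretches of the IFITM3 transcript, 17.4% were also in IFITM1 and 9.07% in IFITM2. Of those of IFITM1, 15.8% were in IFITM3 and 8.08% in IFITM2. Of those of IFITM2, 5.33% were in IFITM3 and 5.22% in IFITM1. How reads that match several genes were placed is not given in the sources used here, and its part in the island pattern was not tested. Transcripts were compared and not the sequences of the islands, so whether the IP and input reads of either island are affected is not known.

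Both islands passed the threshold that the study applied, a log2 fold change above 1, which 517 islands or 1.58% of the list passed. Both also had a lower counting bound above 1, as did 60 islands, or 0.183%, and both were above 1.5, as were 58 islands, or 0.177%. In order of fold the IFITM1 island ranked 3 of 32760 and the IFITM2 island 17. Neighbours in this order did not differ beyond counting error. The island ranked 2, on chromosome Y, stood at 3.03 on the log2 scale (2.40 to 3.70) and that ranked 4, also on chromosome Y, 2.33 (1.92 to 2.76), and the IFITM1 island differed from them by -0.02 (-1.19 to 1.14) and 0.67 (-0.40 to 1.74). Next to the IFITM2 island, that ranked 18 also stood at 1.74 (1.08 to 2.41), with a difference of 0.00064 (-0.84 to 0.84). The interval of the IFITM1 island lay wholly above those of 458 other peaks and overlapped those of 58, or 11.2% of the others, whereas that of IFITM2 lay above none and overlapped those of 514, or 99.6%. By −log10 p, which grows with the number of reads, the islands ranked 92 and 157. Among the 29 peaks of chromosome 11 they ranked 2 and 4 by fold. In the study, peaks in blacklisted regions were taken out; whether either island is among those was not tested.

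**Figure D2:**
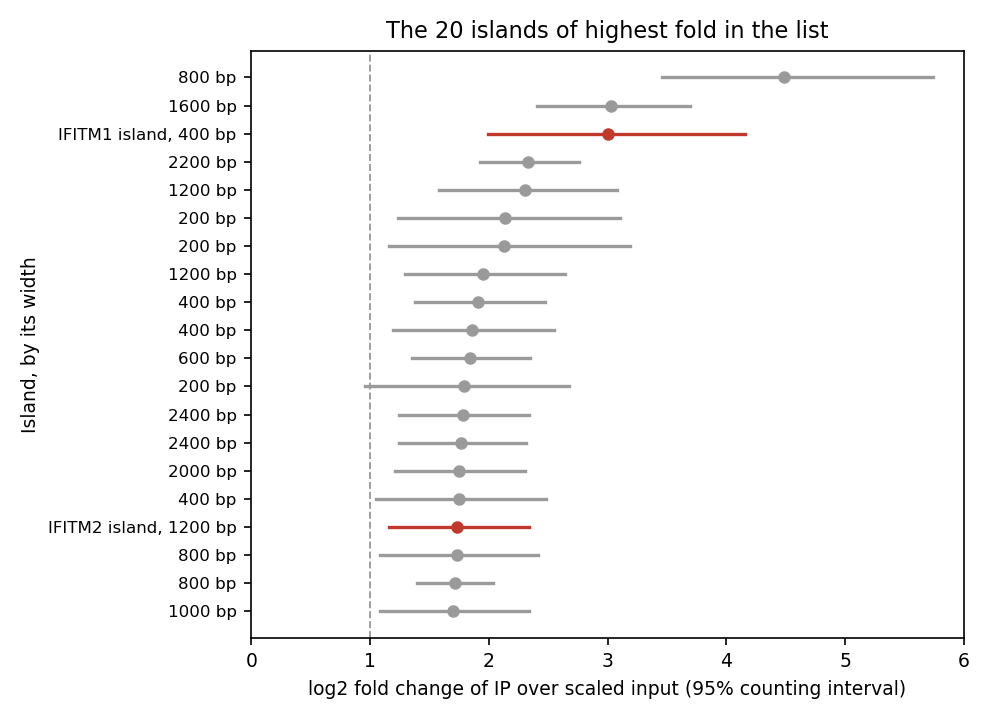
Log2 fold change, IP against input at equal depth (x axis, points), with its 95% counting interval (lines) for the 20 islands of highest fold in the list, each named by its width (y axis), with the IFITM islands in red. The IFITM1 island stands at 3.00 with an interval from 1.99 to 4.16, and the IFITM2 island at 1.74 with an interval that overlaps those of most of the others shown.

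The reads behind the folds were set beside those of listed islands of the same size. Islands are listed only where IP reads exceed those predicted from their own input, so islands with more input hold more IP reads by that choice, and these values do not say which kind of read sets the fold. The list has 41 islands of 400 bp, of which 78% were above a log2 fold change of 1, so passing that threshold is common at this width. The other 40 had a median log2 fold change of 1.24 and at most 1.91, against 3.00 at IFITM1. The IP reads of the IFITM1 island, 112.5 per kb, were below those of 34 of the other 40, whose median was 153.8 per kb. Its input reads, 25 per kb, were below all other 40, which ranged from 55 to 4345 with a median of 118.8 per kb. Against all islands of the list, which are mostly wider, its IP reads per kb were higher than in 99.4% of the others.

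At IFITM2 the input reads per kb were also low for the width. Of 41 islands of 1200 bp, 41.5% were above a log2 fold change of 1. Its 60.8 IP reads per kb were close to the median of the other 40, 58.3 per kb. Its 32.5 input reads per kb were below those of 38 of the other 40 (median 59.2 per kb). Had the input stood at the median of the other islands of the same width, 47.5 reads for IFITM1 and 71 for IFITM2, the log2 fold changes would have been 0.75 and 0.87. At the input density of the other IFITM island they would have been 2.62 for IFITM1 and 2.11 for IFITM2. The median is of listed islands, where input and IP reads are tied by the listing. These values therefore do not say what sets the folds. Against all islands of the list, the IP reads per kb at IFITM2 were higher than in 98.8% of the others (median 31.6), and the input reads per kb were below the median of 42.1 at both genes.

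**Figure D3:**
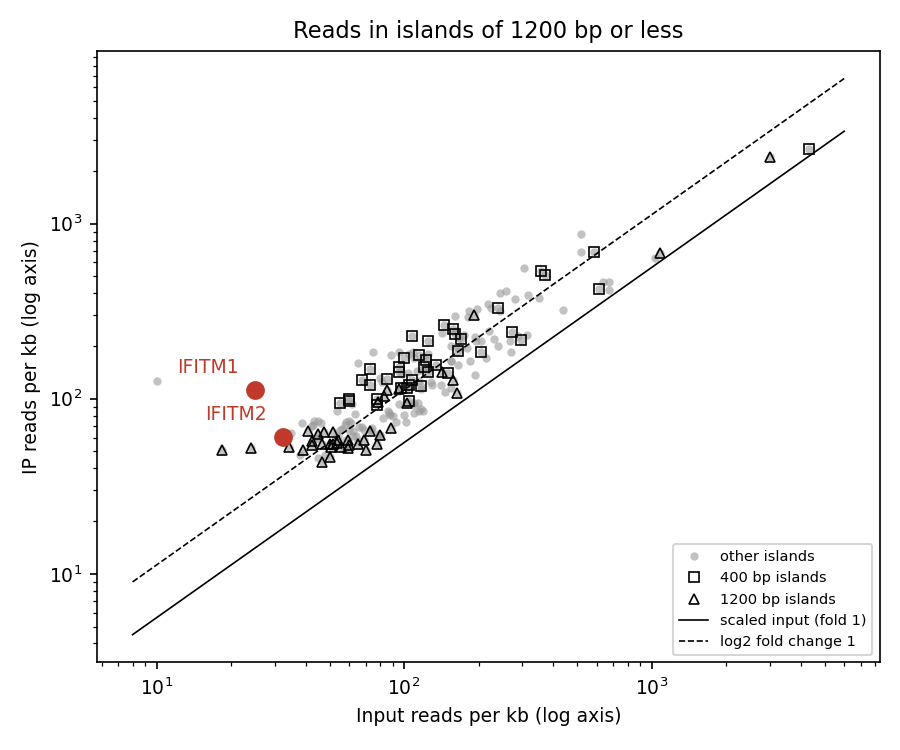
IP reads per kb (y axis, log) against input reads per kb (x axis, log) for islands of 1200 bp or less, with squares for islands of 400 bp, triangles for those of 1200 bp, red points for the IFITM islands, a solid line where IP equals scaled input and a dashed line at a log2 fold change of 1. IFITM1, at 25 input and 112.5 IP reads per kb, lies left of all other squares, and IFITM2, at 32.5 and 60.8, lies left of most triangles at a similar height.

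The IFITM islands stood in a stretch with few others. They covered 1600 bp, or 1.07%, of the window of 150 kb and lay 4.8 kb apart. The first 2 Mb of chromosome 11, taken as the surroundings because the window lies at the chromosome end, held 4 islands, against a median of 17 in the 1297 bins of 2 Mb that had any. Before the IFITM2 island 116.4 kb were free of islands, and after the IFITM1 island 495.4 kb. The island before, at chr11:189201-191600, stood at 0.39 on the log2 scale (0.10 to 0.68) with 177 IP and 240 input reads. The island after, at chr11:809801-812600, stood at 1.22 (0.88 to 1.56) with 169 IP and 129 input reads. Both held more input reads per kb, the lower of them 46.1, than either IFITM island. The first island past 2 Mb began at 3361401.

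With 3 peaks above a log2 fold change of 1, the first 2 Mb of chromosome 11 was among 18 bins with at least 3, of 422 with any peak. Peaks so close to each other were few. Over the whole list 6 pairs of neighbouring peaks lay less than 10 kb apart. Of these, 3 lay on chromosome 11, which held 29 of the 517 peaks. The counts are small and were not tested. The IFITM pair was the 1 pair of the 6 in which both peaks were above 1.5. The window was chosen with these folds known. In bins of 2 Mb, 4 held at least 2 peaks above 1.5, of 54 with any. The smallest gap between any islands of the list was 800 bp, well under the 4.8 kb between those at IFITM2 and IFITM1.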

How the data were processed

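According to the submitters' processing notes, ChIPseeker 1.18.0, SICER 0.0.52, Trimmomatic 0.36.5, SAMtools 1.3.1 and BWA 0.7.17.1 were used with hg19, and the methods of the study name epic2. A single island call was made by the authors over all libraries. The deposited list gives a score (100 times the log2 fold change, cut to a whole number), the log2 fold change of IP reads against input scaled to the same depth, and −log10 p and −log10 FDR, all of which the authors' caller made, for 32760 islands at FDR below 0.05. Precipitates with rabbit IgG were not analysed here.

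IP and input reads were worked out from the deposited fold and p by the Poisson formula of the caller; input reads were whole within 0.02 in 32751 islands at 0.5618 expected IP reads per input read, so the pooled input was 1.78 times as deep as the pooled IP. On 1713 simulated islands 100% of read numbers were recovered, which checks the arithmetic and not the formula that the caller used. Over all islands the medians were 148 IP and 198 input reads. The share of IP reads in an island was given an exact Clopper-Pearson interval (95%), moved to the log2 fold scale. Reads are not independent molecules, so they cover counting error only.

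Island positions are hg19, counted from 1. No hg19 annotation was used here: gene spans in hg19 are approximate values given with the choice of the window, strands are general knowledge, and promoters and transcripts (GRCh38) were used without positions. Named were the IFITM genes, their direct neighbours in gene order (IFITM5 and B4GALNT4), every island in the window and each peak in the first 2 Mb. Members and lists were chosen with earlier results of these data known. No test between libraries was made, since the list pools them. Protein identity was planned and not run. Computations ran in Python 3.11.15 with biopython 1.88, matplotlib 3.10.9, pandas 2.3.3, scipy 1.17.1 and numpy 2.4.6.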

Additional observations from a re-analysis of the deposited data

How the results depend on the processing

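The 2 islands of the window remained at FDR 0.01 and 0.001, with islands less than 1 kb apart merged and with the centre required in the window. Their −log10 FDRs of 22.9 and 15.1, their gap of 4.8 kb and their place in the window fixed this beforehand. The count of 3 peaks in the first 2 Mb was 3 at both stricter FDRs and with 1 or 2 Mb to each side of the window, 2 above a log2 fold change of 1.5 or with the lower counting bound above 1, and 4 with no fold threshold. The wider sides add no island, since the first past 2 Mb began at 3361401. Adding 1 read to both sides gave log2 fold changes of 2.80 for IFITM1 and 1.69 for IFITM2. Input at the median density of islands of the same width, an alternative chosen after the data were seen, gave 0.75 for IFITM1 and 0.87 for IFITM2, each outside its counting interval. That median is of listed islands, where input and IP reads are tied by the listing, so it does not say what sets the folds. The rank of the IFITM1 island went from 3 to 92 by −log10 p and to 1 of 41 among islands of its own width, and that of the IFITM2 island from 17 to 157 and to 3 of 41. By lower counting bound they were 3 and 35, and IFITM1 was second among the 161 islands of 1000 bp or less, a class that IFITM2 is too wide for. By their centres the islands lay 0.2 kb (IFITM1) and 0.5 kb (IFITM2) past the gene start. The longer NFAT motif gave 0 matches in place of 3 and 4. No paired analysis was possible because islands carry 1 pooled value and none by replicate, and leaving out a replicate could not be done either. Depth limits the folds: 10 input reads lie behind the IFITM1 value.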
